A study of Mus with 4 samples.

Results

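Oxidative phosphorylation is the work of 5 protein complexes of the inner mitochondrial membrane, and the nuclear genes that encode and assemble them were followed here in PPS-ICBR cells, described in the labels as prostate cancer cells of strain C57Bl6 mice. The 95 member genes were chosen by symbol (Ndufa, Ndufb, Ndufc, Ndufs and Ndufv, Sdha to Sdhd, Uqcr, Cyc1, Cox4 to Cox8 and Atp5), out of 18193 genes with 1 symbol in the platform annotation. They were read by 186 of the 45037 probe sets that are not controls. Of the 95 genes, 82 encode subunits and 12 encode assembly factors (Ndufaf for complex I and Sdhaf for complex II). Cox7a2l encodes a factor known for joining complexes into supercomplexes. Ndufa4 and its paralogue Ndufa4l2, named after complex I, were placed with complex IV, where the Ndufa4 protein is now known to sit.

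The cells, at 60% confluency in DMEM with serum and the additive P/S, received either 5 µM vorinostat dissolved in DMSO or the solvent by itself (5 µL DMSO per 10 mL medium) overnight. Vorinostat blocks histone deacetylases, the enzymes that remove acetyl groups from histones. RNA of each treatment was read on 2 Affymetrix arrays, named DMSO 1, DMSO 2, Vorinostat 1 and Vorinostat 2. Since separate cultures are not stated in the labels, each p-value reflects no more than the spread among these samples, possibly a technical one. The comparison asked which transcripts of the respiratory chain and ATP synthase differed between cells with vorinostat and cells with its solvent.

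Complex I takes electrons from NADH and complex II from succinate. Both pass them through coenzyme Q to complex III, then through cytochrome c to complex IV, which reduces oxygen. Complexes I, III and IV pump protons, and complex V, the ATP synthase, lets the protons back to make ATP. The chain is built from the products of nuclear genes and of the mitochondrial genome, and dedicated assembly factors insert cofactors and join the modules. Proliferating cancer cells use the chain for ATP and also to regenerate the electron acceptors that biosynthesis needs.

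Every value is a deposited log2 value, and every change is a difference of log2 values, vorinostat minus DMSO, with its standard error (SE) and n = 2 arrays per group. "Rose" and "fell" are used for an adjusted p under 0.05 in limma, a linear model with moderated variances, with Benjamini-Hochberg adjustment over all 45037 probe sets. A gene is represented by its probe set with the highest mean. A group of arrays is near background where all its arrays lie at or below 3.78, which is 1 log2 unit above the brightest value (2.78) of the TrpnX control probe sets.

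The array medians lay between 4.19 and 4.28, and the 3′ minus 5′ differences of the Gapdh and actin controls between -0.25 and 0.04. The epithelial keratin Krt18 lay at 11.48 to 11.51 in DMSO, and the prostate homeobox gene Hoxb13 at 8.24 on both DMSO arrays, while Pbsn, which encodes the secreted prostate protein probasin, was near background on all arrays. Of the called markers in that list, Krt8 fell from 12.25 and 12.36 to 11.11 and 11.4, Krt19 rose from 8.21 and 8.13 to 9.18 and 9.36, and Hoxb13 rose to 8.75 and 8.82. Of 11 prostate and epithelial markers measured, 2 rose and 1 fell, with summed log2 levels of 77.17 and 77.40 in DMSO and 77.16 and 78.13 with vorinostat. Of 6 fibroblast markers 2 rose and 2 fell, and 0 of the 6 were near background. Pdgfrb fell from 9.14 and 9.03 to 6.52 and 6.67, and Col3a1 from 11.17 and 11.16 to 9.93 and 10.61. Pdgfra rose from 5.38 and 5.44 to 6.89 and 7.02, and Dcn from 9.24 and 9.13 to 10.34 and 10.55. Col1a2, at 12.67 and 12.68 in DMSO, and Col1a1 did not pass. Opposite changes offset each other in the summed levels, which were 54.18 and 54.26 in DMSO and 52.26 and 53.96 with vorinostat. Of 5 leukocyte markers 1 rose and 0 fell, and of 4 endothelial markers 0 rose and 0 fell by limma (0 and 0 at an unadjusted p under 0.05), with 3 and 2 near background in both groups. The part of these shifts in the results below was not tested.

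More members rose than fell with vorinostat. Of the 95 genes, 41 rose and 13 fell, and 41 did not pass, so that 43.2% rose where 20.9% of all 18193 genes did, and 13.7% fell where 18.9% of all genes did. Among the 11618 genes whose mean lay above the median probe set level, as that of most members did, 28.7% rose and 28.2% fell. The rises were mostly small: 5 members rose at least 2-fold (5.74% of all genes did) and 1 fell at least 2-fold (6.17% of all genes did). The median change of the members was 0.21, against 0.03 over all genes, and it lay between 0.19 and 0.24 in the 4 differences between a vorinostat and a DMSO array, while the medians of the differences within a group were -0.02 and -0.03. Each array reads a whole culture, so more RNA per cell and more cells that carry a transcript cannot be told apart. RMA equalises the arrays by quantiles before probes are summarised, so a shift common to the whole transcriptome is largely removed.

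The counts depended on the number of arrays and on the scale. With 1 array left out, its group holds 1 array, and fewer of all genes pass, whichever array it is. Of the 54 members called in the full comparison, 0 changed sign in any of the 4 omissions. With 1 array left out, 26 (without DMSO 1), 27 (without DMSO 2), 26 (without Vorinostat 1) and 29 (without Vorinostat 2) members rose and 4 fell in each case, while 11.5% to 13.1% of all genes rose and 11.2% to 12.8% fell. In all, 24 rises and 4 falls (Ndufb1, Ndufaf4, Ndufaf6 and Atp5g2) passed in the full comparison and whichever array was left out, and calls that were lost are named below. Scaling on 6 reference genes (mean change -0.43, with Gusb at -1.42 and Polr2a at -0.75) raised every change: 77 members rose and 4 fell, but 69.4% of all genes rose and 10.2% fell on that scale, and the median of all genes moved from 0.03 to 0.46. Of the reference genes, Gusb and Polr2a themselves fell with vorinostat. Reference-gene scaling adds the same amount to every change. The members' median therefore stood 0.18 above that of all genes on both scales by construction. Median centring kept 49 of the 54 member calls, with 0 changes of sign, and the medians were 0.15 for members and -0.03 for all genes. The calls that were lost were rises, and 1 member was newly called. Of the member calls on that scale 72% were rises, as were 46.3% of the calls over all genes. On it 18.5% of all genes rose and 21.4% fell.

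**Figure D1:**
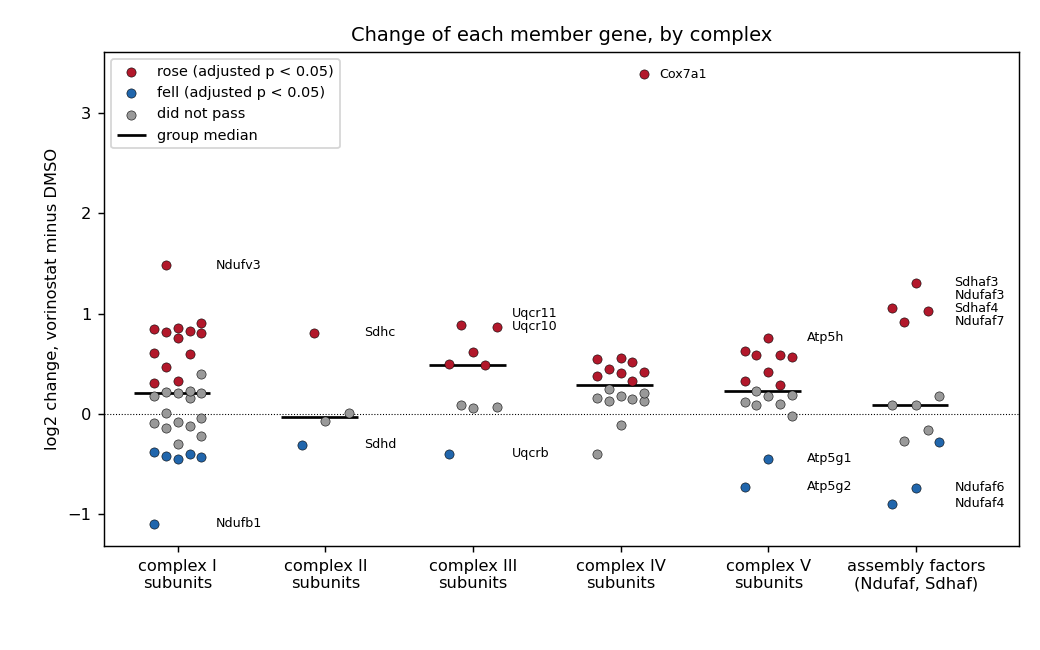
Each point is 1 member gene at its representative probe set, placed by complex (horizontal) and by its log2 change, vorinostat minus DMSO (vertical), with bars at the group medians. Complex III had the highest median (0.49) and complex II the lowest (-0.03, which turned to 0.40 under reference-gene scaling), and Cox7a1 stood apart at 3.39, of which 2.61 is the bound that its near-background DMSO level allows.

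In complex I, 13 of 34 subunit genes rose (38.2%), 6 fell (17.6%) and 15 did not pass, with a median change of 0.21. Over all genes 20.9% rose and 18.9% fell, and above the median probe set level 28.7% and 28.2% did. With Ndufa4 and Ndufa4l2 counted in complex I instead, 14 of 36 rose and 6 fell. The largest rise was that of Ndufv3, a small accessory subunit beside the NADH-binding site: 9.15 and 9.24 on the DMSO arrays and 10.69 and 10.65 with vorinostat, or 2.79-fold (1.48, SE 0.08, adjusted p = 0.000296). The groups did not overlap and stood far apart relative to the spread within them. The largest fall was that of Ndufb1, a small subunit of the membrane arm, from 7.15 and 7.24 in DMSO to 6.0 and 6.18 with vorinostat, or 2.15-fold lower (-1.10, SE 0.10, adjusted p = 0.000985). It was the 1 member that fell at least 2-fold, and it stayed lower (-0.67) under reference-gene scaling.

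The catalytic path of complex I runs through conserved core subunits, of which 6 encoded in the nucleus were measured, and these did not move together. Ndufv1, which binds NADH and the flavin, lay at 10.18 and 10.02 in DMSO and at 10.98 and 10.86 with vorinostat, and rose by 0.82 (SE 0.10, adjusted p = 0.00251). Its other probe sets rose by 0.77 and 0.78. Ndufv2, its iron-sulphur partner, rose by 0.33 (SE 0.08, adjusted p = 0.0259). The remaining core subunits all had negative changes. Ndufs1, which carries iron-sulphur clusters in the NADH module, lay at 9.11 and 9.05 in DMSO and at 8.63 on both vorinostat arrays (-0.45, SE 0.08, adjusted p = 0.00907). Ndufs3 (-0.38, SE 0.08, adjusted p = 0.0179) and Ndufs7 (-0.42, SE 0.08, adjusted p = 0.0113), subunits of the module that reduces coenzyme Q, fell too. Ndufs8, which holds iron-sulphur clusters next to them, missed the threshold at its brightest probe set (-0.30, SE 0.10, adjusted p = 0.0704, and 0.13 under reference-gene scaling), while 4 of its 6 probe sets fell.

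These falls were small, and their values depended on the scale. Reference-gene scaling adds 0.43 to every change, so a fall of about that size moves to near 0 by construction. On that scale Ndufs1 stood at -0.02, Ndufs7 at 0.01 and Ndufs3 at 0.06. Under median centring the median of the 6 core subunits was -0.40. None of the calls of Ndufs1, Ndufs3, Ndufs7 and Ndufv2 passed without DMSO 1, DMSO 2, Vorinostat 1 or Vorinostat 2 (adjusted p from 0.0501 to 0.0704 for Ndufs1, from 0.0646 to 0.103 for Ndufs3, from 0.0663 to 0.0771 for Ndufs7 and from 0.0966 to 0.129 for Ndufv2). The rise of Ndufv1 passed in each case (0.0287 to 0.0398). The median change was -0.34 for the 6 core subunits (0.10 under reference-gene scaling) and 0.22 for the 28 accessory ones. Of the core subunits 33.3% rose and 50% fell, and of the accessory ones 39.3% and 10.7% (11 and 3 genes). Over all genes 20.9% rose and 18.9% fell, and above the median probe set level 28.7% and 28.2% did. The division into core and accessory subunits follows the known roles, was applied with the values known, and was not tested.

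Among the accessory subunits, those of the Ndufb series sit in the distal membrane arm. Of 11 measured, 4 rose (36.4%), 2 fell (18.2%) and 5 did not pass, where 20.9% of all genes rose and 18.9% fell. Above the median probe set level 28.7% rose and 28.2% fell. Ndufb3 lay at 9.16 and 9.12 in DMSO and at 10.03 and 9.95 with vorinostat (0.86, SE 0.08). Ndufb9 rose by 0.85 (SE 0.08), and by 0.97 at its second probe set, and Ndufb6 rose by 0.81 (SE 0.08). Ndufb10 rose by 0.60 (SE 0.09), a call lost without DMSO 1, DMSO 2 or Vorinostat 1 (adjusted p from 0.0331 to 0.0599 over the 4 omissions). Ndufb5 stood against them at 10.68 and 10.66 in DMSO and 10.29 and 10.19 with vorinostat (-0.43, SE 0.08, and 0.00 under reference-gene scaling), and its fall did not pass without any of the 4 arrays (0.0574 to 0.0871). Ndufb4 was read by 1 probe set with 1 symbol, near background in both groups (0.40, SE 0.19, adjusted p = 0.19), and brighter probe sets that carry its symbol beside others were not used.

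In the Ndufa series 3 of 12 members rose (25%) and 1 fell (8.33%). These shares stand beside 20.9% and 18.9% over all genes and 28.7% and 28.2% above the median probe set level. Ndufa7 lay at 10.70 and 10.64 in DMSO and at 11.60 and 11.56 with vorinostat (0.91, SE 0.08), and all 5 of its probe sets rose, by 0.66 to 1.10. Ndufa1, needed to anchor the membrane arm, lay at 11.30 and 11.25 in DMSO and at 12.12 and 12.09 with vorinostat (0.83, SE 0.08). Neither gene's groups overlapped. Ndufa12 rose by 0.31 (adjusted p = 0.0488) and Ndufa5 fell by 0.40 on the log2 scale (0.03 under reference-gene scaling), and neither passed without DMSO 1, DMSO 2, Vorinostat 1 or Vorinostat 2 (0.105 to 0.211 for Ndufa12 and 0.0541 to 0.105 for Ndufa5). Of the remaining accessory subunits, Ndufs5 rose by 0.76 (SE 0.08), Ndufc2 by 0.61 and Ndufc1 by 0.47. Ndufc2 did not pass without DMSO 1 (0.0511), and Ndufc1 did not pass without any of the 4 arrays (0.0536 to 0.0641).

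Ndufs4, an accessory subunit of the NADH module, was the 1 member whose probe sets were called in opposite directions. Its brightest probe set lay at 9.31 and 9.23 in DMSO and at 9.47 and 9.50 with vorinostat and did not pass (0.21, SE 0.08, adjusted p = 0.107). Dimmer probe sets rose by 0.95 (adjusted p = 0.00807) and fell by 0.53 (adjusted p = 0.0207), the latter from 4.27 and 4.12 to 3.55 and 3.79.

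**Figure D2:**
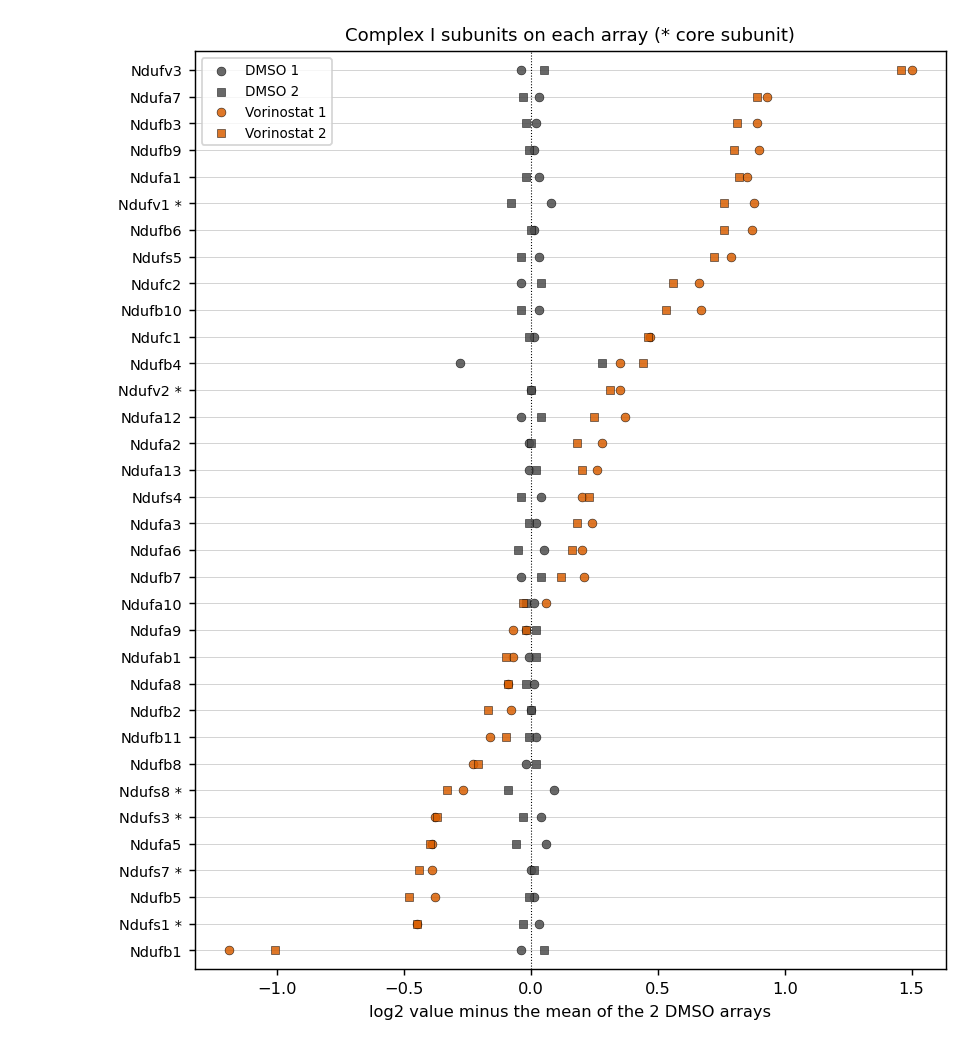
Each row is 1 complex I subunit gene, ordered by change, and each point is 1 array, as its log2 value minus the mean of the 2 DMSO arrays (horizontal), with DMSO in grey and vorinostat in orange. Ndufv3 (1.48) and Ndufb1 (-1.10) mark the ends, and the core subunits (starred) stand on both sides, Ndufv1 near the top and Ndufs1 near the bottom. Under reference-gene scaling every vorinostat point would move right by 0.43.

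Complex II has 4 subunits, all measured: 1 rose (25%), 1 fell (25%) and 2 did not pass. Over all genes 20.9% rose and 18.9% fell, and above the median probe set level 28.7% and 28.2% did. Neither catalytic subunit passed at its brightest probe set. Sdha, the flavoprotein that oxidises succinate, lay at 10.35 and 10.33 in DMSO and at 10.37 and 10.34 with vorinostat (0.01, SE 0.08, adjusted p = 0.938). Of the 4 Sdha probe sets 1 fell, and their changes ran from -0.46 to 0.10. Sdhb, the iron-sulphur subunit, lay at 10.43 on both DMSO arrays and at 10.40 and 10.33 with vorinostat (-0.07, SE 0.08, adjusted p = 0.599). The groups overlapped for Sdha and lay next to each other without overlap for Sdhb, and under reference-gene scaling Sdhb stood at 0.37. The membrane anchors Sdhc and Sdhd, which together hold a haem and bind coenzyme Q, diverged. Sdhc lay at 8.97 and 9.07 in DMSO and at 9.85 and 9.81 with vorinostat, a rise of 0.81 (SE 0.08, adjusted p = 0.00153), with 0.51 at its second probe set. Sdhd lay at 10.18 and 10.11 in DMSO and at 9.82 and 9.85 with vorinostat, a fall of 0.31 on the log2 scale (SE 0.08, adjusted p = 0.0355).

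The rise of Sdhc passed whichever array was left out (0.024 to 0.0293). The fall of Sdhd did not pass without DMSO 1, DMSO 2, Vorinostat 1 or Vorinostat 2 (0.0877 to 0.157), its second probe set stood at -0.08, and the value became 0.12 under reference-gene scaling.

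In complex III, 55.6% of the members rose and 11.1% fell, where 20.9% of all genes rose and 18.9% fell. Above the median probe set level 28.7% rose and 28.2% fell. It had 5 of 9 members higher and 1 lower, with a median of 0.49, and 3 did not pass. The 3 were the large core subunits Uqcrc1 (0.07) and Uqcrc2 (0.09) and cytochrome c1, Cyc1, which hands electrons to cytochrome c. Cyc1 lay at 11.34 and 11.29 in DMSO and at 11.36 and 11.40 with vorinostat (0.06, SE 0.08, adjusted p = 0.625). Uqcrfs1, the Rieske iron-sulphur protein, which takes electrons from the quinol, rose from 10.76 on both DMSO arrays to 11.28 and 11.22 (0.49, SE 0.08, adjusted p = 0.00678).

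The other rises were those of small subunits without cofactors. Uqcr11 lay at 10.79 and 10.75 in DMSO and at 11.66 and 11.65 with vorinostat, or 1.85-fold higher (0.89, SE 0.08, adjusted p = 0.000897). Uqcr10 rose by 0.87 (SE 0.08), Uqcrh, the hinge protein beside cytochrome c1, by 0.62 (SE 0.08) and Uqcrq by 0.50 (SE 0.08). The second probe set of Uqcr10 rose by 0.42, so the size of its change differed between probe sets. Of the 4 Uqcrq probe sets only 1 rose, the dimmer second one stood at -0.09 and the lowest change was -0.26. Uqcrb, a small subunit next to the quinone site, fell from 12.41 and 12.48 to 12.05 on both vorinostat arrays (-0.40, SE 0.08, adjusted p = 0.0149), and by 0.79 at its second probe set. The Uqcrb value became 0.04 under reference-gene scaling and did not pass without DMSO 1, DMSO 2, Vorinostat 1 or Vorinostat 2 (0.0627 to 0.0899). Uqcrfs1 lost its call without DMSO 1, DMSO 2 or Vorinostat 1 (0.0456 to 0.0621 over the 4 omissions), and Uqcrq without DMSO 2, Vorinostat 1 or Vorinostat 2 (0.0467 to 0.0628).

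In complex IV, 9 of 18 subunit genes rose and 0 fell by limma (also 0 at an unadjusted p under 0.05), with a median of 0.29. The share that rose was 50%, where 20.9% of all genes rose and 18.9% fell (28.7% and 28.2% above the median probe set level). The catalytic core of this complex is encoded by the mitochondrial genome and was not analysed here. All 9 rises but 1 lay between 0.33 and 0.56. Cox6a1 lay at 12.80 and 12.79 in DMSO and at 13.31 and 13.32 with vorinostat (0.52, SE 0.08, adjusted p = 0.00507). Cox6b1 lay at 11.32 and 11.28 in DMSO and at 11.85 on both vorinostat arrays (0.55, SE 0.08, adjusted p = 0.00446). Cox8a rose by 0.56, Ndufa4 by 0.45, Cox7a2 by 0.42, Cox4i1, a regulatory subunit, by 0.41, Cox5a by 0.38 and Cox6c by 0.33. The second Cox6c probe set, also bright (mean 11.4), stood at 0.13 and did not pass. Cox5b missed the threshold (0.21, SE 0.08, adjusted p = 0.104), and Cox7c, for which the annotation gives only dim probe sets, did not pass either (-0.40, SE 0.17, adjusted p = 0.154, and 0.04 under reference-gene scaling).

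Cox6a1 and Cox6b1 passed whichever array was left out. Cox8a lost its call without Vorinostat 1 (0.0515). Cox4i1, Cox5a, Cox6c, Cox7a2 and Ndufa4 lost theirs without DMSO 1, DMSO 2, Vorinostat 1 or Vorinostat 2 (Cox4i1 0.0646 to 0.0867, Cox5a 0.0722 to 0.0951, Cox6c 0.0794 to 0.148, Cox7a2 0.0579 to 0.0881 and Ndufa4 0.0552 to 0.064), so that 4, 4, 3 and 4 of the 18 rose in these comparisons. All their changes kept their sign.

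Several complex IV subunits exist as tissue isoforms, and 1 of these stood apart. Cox7a1, the isoform of heart and skeletal muscle, lay near background in DMSO at 3.01 and 3.0 and at 6.49 and 6.30 with vorinostat. The groups lay far apart, and this was the largest change of any member (3.39, SE 0.10, adjusted p = 0.00016), and since its DMSO level was near background, only a bound of at least 6.12-fold can be stated. It passed whichever array was left out (0.0123 to 0.0201). Its broadly expressed counterpart Cox7a2 lay at 12.06 and 12.07 in DMSO and at 12.53 and 12.44 with vorinostat.

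The other tissue isoforms did not pass. The muscle isoforms Cox6a2 (0.25, SE 0.08, adjusted p = 0.0797) and Cox8b (-0.11, SE 0.12, adjusted p = 0.581, and 0.33 under reference-gene scaling) lay at 5.11 and 5.16 and at 4.01 and 4.19 in DMSO. Cox4i2, known from lung and from cells short of oxygen, lay at 4.25 and 4.34 in DMSO and at 4.44 and 4.41 with vorinostat, and Ndufa4l2, a target of the hypoxia response, changed by 0.16 (SE 0.08, adjusted p = 0.206). Of the testis isoforms, Cox6b2 (0.13) and Cox7b2 (0.15) were near background in both groups, and Cox8c lay at 7.24 and 7.29 in DMSO and at 7.49 and 7.39 with vorinostat (0.18, SE 0.08, adjusted p = 0.179). Of 6 other genes that mark striated muscle, 0 rose and 0 fell by limma (2 higher and 1 lower at an unadjusted p under 0.05). Their summed log2 levels were 21.44 and 21.67 in DMSO and 21.85 and 21.87 with vorinostat, and 4 of them, Myh4, Tnnt3, Actn2 and Myog, were near background in both groups. No member of that list was called beside Cox7a1.

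Cox7a2l, known for a role in joining complexes III and IV into supercomplexes, lay at 9.85 on both DMSO arrays. With vorinostat it lay at 10.68 and 10.48 (0.73, SE 0.10, adjusted p = 0.00368). Only its RNA was read, and neither the form of the protein in this strain nor supercomplexes were measured. Its other probe sets rose by 0.80 and 0.81. The representative probe set lost its call without DMSO 1 or DMSO 2 (0.0209 to 0.055 over the 4 omissions).

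In complex V, 8 of 17 subunit genes rose (47.1%), 2 fell (11.8%) and 7 did not pass, with a median of 0.23. Over all genes 20.9% rose and 18.9% fell, and above the median probe set level 28.7% and 28.2% did. The rotary head, F1, had 2 of 5 members higher. Its catalytic subunits did not pass: Atp5a1, the alpha chain, lay at 12.20 and 12.23 in DMSO and at 12.19 and 12.20 with vorinostat (-0.02, SE 0.08, adjusted p = 0.863, and 0.41 under reference-gene scaling), and Atp5b, the beta chain that makes ATP, at 12.58 and 12.54 in DMSO and at 12.78 and 12.80 with vorinostat (0.23, SE 0.08, adjusted p = 0.0835). In the central stalk, Atp5d, the delta chain, lay at 11.54 on both DMSO arrays and at 12.11 and 12.15 with vorinostat (0.59, SE 0.08, adjusted p = 0.00341), and Atp5c1, the gamma chain, rose by 0.33 (SE 0.08, adjusted p = 0.0305).

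Among the peripheral stalk and the small membrane subunits, 6 of 9 genes rose and 0 fell by limma (also 0 at an unadjusted p under 0.05). The share that rose was 66.7%, where 20.9% of all genes rose and 18.9% fell (28.7% and 28.2% above the median probe set level). Atp5h, subunit d of the stalk, lay at 11.62 and 11.59 in DMSO and at 12.39 and 12.33 with vorinostat, or 1.69-fold higher (0.76, SE 0.08, adjusted p = 0.00159), with 0.70 at its second probe set. Atp5j, coupling factor 6, rose by 0.57 (SE 0.08). Of the subunits that shape the membrane and join 2 synthases into a dimer, Atp5l (subunit g) rose by 0.59, Atp5k (subunit e) by 0.29 and Atp5md by 0.63, and the small membrane subunit Atp5mpl by 0.42. Atp5d, Atp5h, Atp5j, Atp5l and Atp5md passed whichever array was left out, while Atp5c1 (0.0889 to 0.15), Atp5k (0.113 to 0.149) and Atp5mpl (0.0641 to 0.0809) did not pass without any of the 4 arrays.

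The genes of the proton-carrying ring are described apart. Atp5g1, Atp5g2 and Atp5g3 encode the same mature subunit c behind different import sequences. Atp5g2 lay at 11.13 and 11.15 in DMSO and at 10.39 and 10.43 with vorinostat, or 1.65-fold lower (-0.73, SE 0.08, adjusted p = 0.00174). Atp5g1 lay at 10.59 and 10.54 in DMSO and at 10.10 and 10.12 with vorinostat (-0.45, SE 0.08, adjusted p = 0.00916). Atp5g3 lay at 12.07 and 12.11 in DMSO and at 12.22 and 12.18 with vorinostat (0.12, SE 0.08, adjusted p = 0.337). The fall of Atp5g2 passed whichever array was left out (0.0249 to 0.03) and stood at -0.29 under reference-gene scaling. The fall of Atp5g1 did not pass without DMSO 1, DMSO 2, Vorinostat 1 or Vorinostat 2 (0.0506 to 0.0726), and its value was -0.02 under that scaling.

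**Figure D3:**
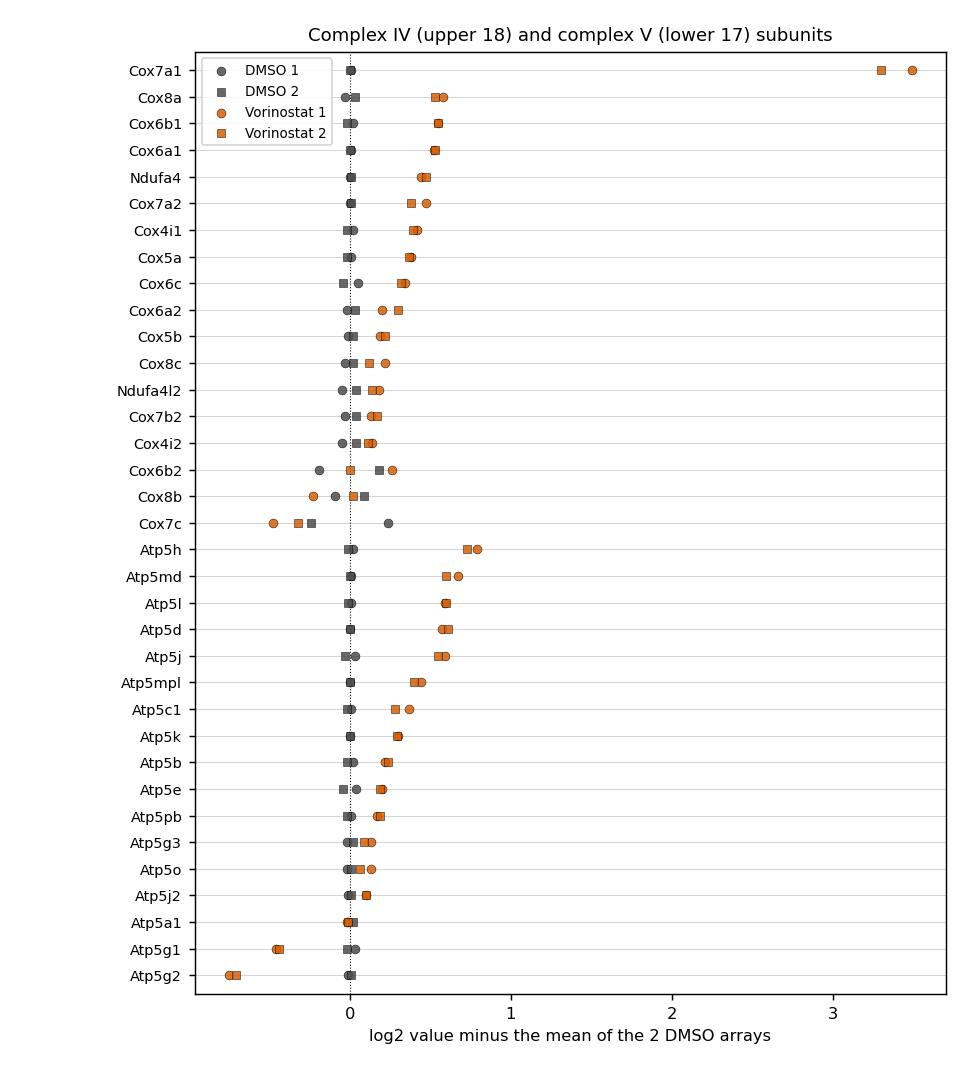
Rows are the 18 subunit genes of complex IV (upper, ordered by change) and the 17 of complex V (lower), and points are the 4 arrays, as log2 value minus the mean of the 2 DMSO arrays (horizontal), DMSO in grey and vorinostat in orange. Cox7a1 lies farthest to the right (its DMSO arrays were near background, so its rise is at least 2.61), most other complex IV genes lie a little to the right of 0, and Atp5g1 and Atp5g2 are the complex V genes that lie clearly to the left (for Atp5g1 this shrinks to -0.02 under reference-gene scaling).

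The 12 assembly factors of complexes I and II were called in both directions: 4 rose (33.3%), 3 fell (25%) and 5 did not pass. Over all genes 20.9% rose and 18.9% fell, and above the median probe set level 28.7% and 28.2% did. Calls in both directions were thus no trait of these genes. Of the 12 assembly factors, 3 rose at least 2-fold, where 5.74% of all genes did. For complex I, Ndufaf3 and Ndufaf4, whose proteins bind each other in the early assembly of the Q module, went opposite ways. Ndufaf3 lay at 7.14 and 7.17 in DMSO and at 8.27 and 8.16 with vorinostat, or 2.08-fold higher (1.06, SE 0.08, adjusted p = 0.000694). Ndufaf4 lay at 9.55 and 9.53 in DMSO and at 8.65 and 8.63 with vorinostat, or 1.87-fold lower (-0.90, SE 0.08, adjusted p = 0.00085), with -0.85 at its second probe set. Ndufaf4 stayed lower under reference-gene scaling (-0.47).

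Ndufaf7, an arginine methyltransferase that acts on a core subunit of the Q module, lay at 7.38 and 7.31 in DMSO and at 8.36 and 8.17 with vorinostat (0.92, SE 0.10, adjusted p = 0.00178). Ndufaf6, which acts early in building the complex, lay at 7.44 and 7.32 in DMSO and at 6.63 and 6.66 with vorinostat (-0.74, SE 0.08, adjusted p = 0.00221). Ndufaf8, which stabilises Ndufaf5, fell from 8.76 and 8.70 to 8.45 on both vorinostat arrays (-0.28, SE 0.08, adjusted p = 0.0473). Ndufaf5, which hydroxylates Ndufs7, changed by -0.16 (SE 0.08, adjusted p = 0.193). Ndufaf1 (-0.27, SE 0.09, adjusted p = 0.0851, and 0.16 under reference-gene scaling), which joins the membrane arm intermediate, and Ndufaf2 (0.18, SE 0.10, adjusted p = 0.265), which acts late, did not pass. The call of Ndufaf8 was lost without DMSO 1, DMSO 2, Vorinostat 1 or Vorinostat 2 (0.104 to 0.166), and its value was 0.15 under reference-gene scaling, where Ndufaf5 stood at 0.27.

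For complex II, Sdhaf3 and Sdhaf4 rose and Sdhaf1 and Sdhaf2 did not pass. Sdhaf3, which helps to mature the iron-sulphur subunit, lay at 7.18 and 7.14 in DMSO and at 8.55 and 8.37 with vorinostat, or 2.46-fold higher (1.30, SE 0.09, adjusted p = 0.000556). Sdhaf4, which binds flavinated Sdha, lay at 8.04 and 8.15 in DMSO and at 9.12 and 9.13 with vorinostat, or 2.04-fold higher (1.03, SE 0.08, adjusted p = 0.000762). Sdhaf1, which works with Sdhaf3 on the iron-sulphur subunit, changed by 0.09 (SE 0.08, adjusted p = 0.474). Sdhaf2, which attaches the flavin to Sdha, also changed by 0.09 (SE 0.08, adjusted p = 0.455), but a second and dimmer probe set fell by 0.43 (adjusted p = 0.044). All assembly factor calls but that of Ndufaf8 passed whichever array was left out.

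**Figure D4:**
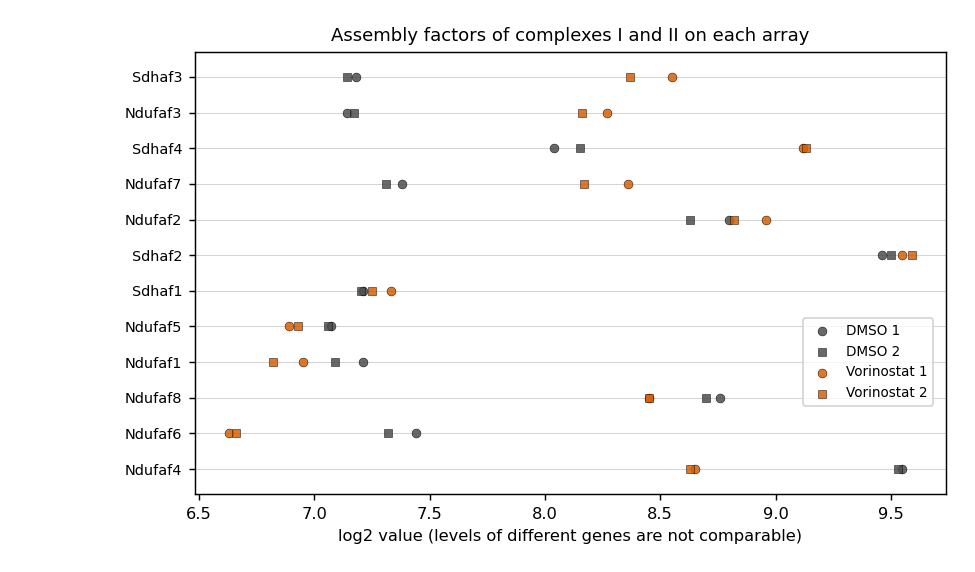
Each row is 1 assembly factor gene and each point 1 array at its log2 value (horizontal), DMSO in grey and vorinostat in orange. The groups are widely separated for Sdhaf3, Ndufaf3, Sdhaf4 and Ndufaf7 (vorinostat higher) and for Ndufaf6 and Ndufaf4 (vorinostat lower, also under reference-gene scaling). Levels of different genes come from different probes and are not comparable.

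Most members were read by several probe sets, which allowed a check of single values. Of the 95 genes, 53 had more than 1 probe set. For 49 of these the second brightest was not near background in both groups, and its change lay within 0.2 of the first in 40 and within 0.5 in 46. The exceptions beyond 0.5 were Ndufb8, Sdhaf2 and Uqcrq, whose second probe sets were dimmer. Of the 186 probe sets, 71 rose (16.5% of all probe sets did) and 27 fell (15.7% of all did). A limit is that 87 of the 186 are of types (ending _s_at, _x_at or _a_at) that can match several transcripts, and many of these genes have processed pseudogenes, so a value may not be that of the named gene alone. With probe sets of the plain type only, 77 members could be read and 27 rose and 12 fell, where 20% of all genes rose and 17.9% fell. Of the 54 member calls of the full comparison 37 were kept in this setting. Among the called members 1 changed sign, and 0 were called in the opposite direction.

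Genes that serve the complexes from outside the member list were also counted. Over all genes 20.9% rose and 18.9% fell, and above the median probe set level 28.7% and 28.2% did. The counts of these lists are to be read beside those shares, and no list was tested as a set. The list of 25 measured complex IV assembly genes had 8 higher and 7 lower. Higd2a, which helps complex IV into supercomplexes, rose from 9.89 and 9.85 to 11.37 and 11.25 (1.44, SE 0.08, adjusted p = 0.000339), and Cox20, a chaperone of the mitochondrially encoded Cox2, from 7.89 and 7.90 to 9.25 and 9.34 (1.4, SE 0.08, adjusted p = 0.000328). Sco2, which delivers copper to Cox2, lay at 6.99 and 6.93 in DMSO and at 5.46 and 5.75 with vorinostat (-1.35, SE 0.12, adjusted p = 0.000952), and Cox15, which makes haem a, fell by 0.73 on the log2 scale (SE 0.09). These 4 passed whichever array was left out. Of 11 complex I assembly genes outside the Ndufaf series, 3 rose and 2 fell, among them Tmem126b (0.68, SE 0.08) and Timmdc1 (0.66, SE 0.09) higher and Tmem186 (-1.34, SE 0.10) and Ecsit (-0.54, SE 0.08) lower, all partners in the membrane arm intermediate. Timmdc1 did not pass without Vorinostat 1 (0.0587), nor Ecsit without DMSO 1 or Vorinostat 1 (0.0385 to 0.0527 over the 4 omissions).

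Of 6 genes for complex V assembly and inhibition, 4 fell and 0 rose by limma (1 was higher at an unadjusted p under 0.05). Over all genes 18.9% fell and 20.9% rose. Fmc1 fell by 0.85 (SE 0.09) and Atpaf1, a chaperone of the beta chain, by 0.68 (SE 0.09) on the log2 scale, and 3 of the falls passed whichever array was left out. Under reference-gene scaling 2 of the 6 fell and 2 rose. Complex III assembly genes had 2 of 6 higher, Bcs1l, which inserts the Rieske protein, at 0.56 (SE 0.09) and Uqcc3 at 0.32 (SE 0.08), and 1 lower, Uqcc1 at -0.50 (SE 0.08). None of these 3 passed in every omission (0 passed without DMSO 1, and Uqcc3 in none of the 4 omissions). Of 12 genes for coenzyme Q, 1 rose and 4 fell. Coq2, which joins the ring to its tail, lay at 7.98 and 8.06 in DMSO and at 6.77 and 6.63 with vorinostat (-1.32, SE 0.09, adjusted p = 0.00049), and Coq3, a methyltransferase, changed by -0.47 (SE 0.08), a call lost without DMSO 1, DMSO 2 or Vorinostat 2 (0.0495 to 0.078 over the 4 omissions). Coq8b rose by 0.88 (SE 0.10). With 1 array left out, 1 or 2 of these 12 fell, and 6 rose and 1 fell under reference-gene scaling.

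Cytochrome c, the carrier between complexes III and IV, did not pass at its brightest probe set. Cycs lay at 12.11 and 12.10 in DMSO and at 12.24 and 12.25 with vorinostat (0.14, SE 0.08, adjusted p = 0.237), while a dimmer probe set rose by 0.39 (adjusted p = 0.0179). The testis form Cyct was near background in both groups (-0.22, SE 0.12, adjusted p = 0.231). The 13 subunits encoded by the mitochondrial genome were not analysed here.

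Over all genes 18.9% fell and 20.9% rose, and above the median probe set level 28.2% and 28.7% did. Among regulators of mitochondrial biogenesis and of the mitochondrial genome, 10 of 21 fell, 1 rose and 10 did not pass. The coactivator Ppargc1a, known to drive respiratory gene expression, was the 1 that rose, from 6.35 and 6.34 to 7.18 on both vorinostat arrays (0.83, SE 0.08, adjusted p = 0.00106), and all 5 of its probe sets did, by 0.73 to 1.09. Its relative Ppargc1b changed by -0.10 (SE 0.09, adjusted p = 0.482), or 0.33 under reference-gene scaling, and Pprc1 fell from 8.46 and 8.39 to 6.94 and 7.07 (-1.41, SE 0.09, adjusted p = 0.00038). Nrf1, a transcription factor for many respiratory chain genes, lay at 7.38 and 7.23 in DMSO and at 6.01 and 5.94 with vorinostat (-1.33, SE 0.09, adjusted p = 0.000489).

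The ETS factor Gabpa, which acts on many of the same promoters, fell by 0.51 on the log2 scale (SE 0.09, adjusted p = 0.00874), and stood at -0.04 at a second probe set. The largest fall was that of its partner Gabpb2, from 8.33 and 7.88 to 5.66 and 6.15 (-2.19, SE 0.22, adjusted p = 0.00138). Tfam, which packages and transcribes mitochondrial DNA, lay at 8.76 and 8.65 in DMSO and at 8.04 and 8.01 with vorinostat (-0.68, SE 0.08, adjusted p = 0.00281), with -0.14 at a dimmer probe set. The nuclear receptor Esrra did not pass (0.16, SE 0.08, adjusted p = 0.196). Gabpa lost its call without DMSO 1, DMSO 2 or Vorinostat 1 (0.0471 to 0.074 over the 4 omissions), 7 or 8 of the regulators fell with 1 array left out, and 7 fell and 11 rose under reference-gene scaling.

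**Figure D5:**
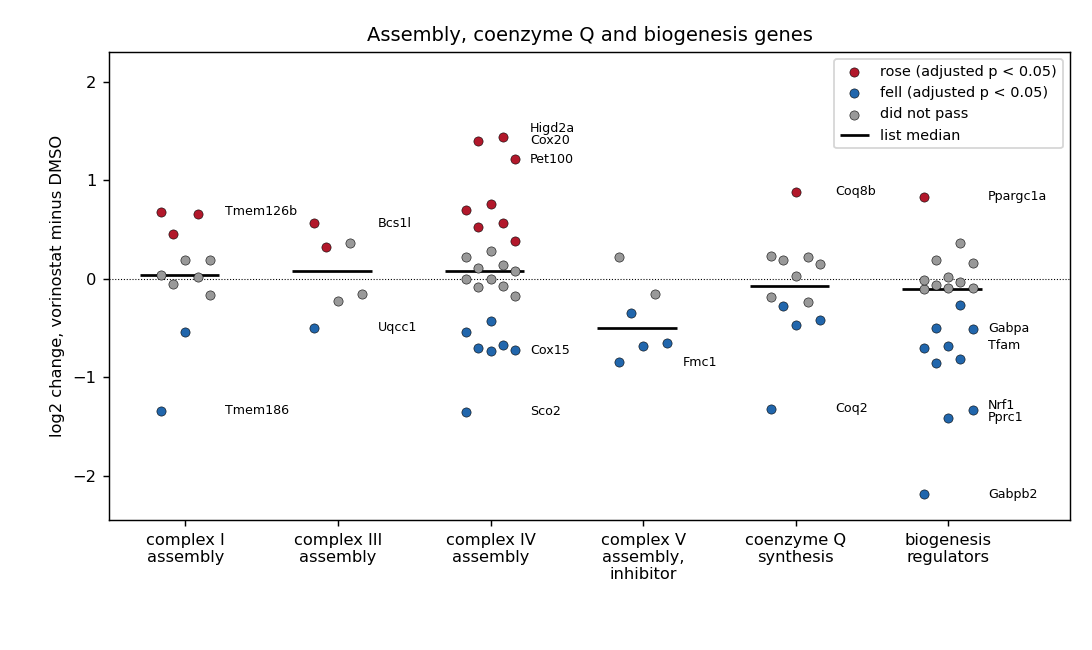
Each point is 1 gene outside the member list, placed by list (horizontal) and by its log2 change, vorinostat minus DMSO (vertical), with bars at the list medians. Complex IV assembly genes lie on both sides of 0, from 1.44 (Higd2a) to -1.35 (Sco2). Most called biogenesis regulators lie below 0, with Ppargc1a above. Under reference-gene scaling 11 regulators rose and 7 fell, where 69.4% of all genes rose and 10.2% fell.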

How the data were processed

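The authors deposited log2 values, 1 for each probe set on each array. RMA and the Transcriptome Analysis Console appear, without versions, in the submitters' processing notes. RMA corrects background, equalises the arrays by quantiles and summarises probes. For the genome build: not given in the sources used here. No sequencing depth exists for arrays, and their number limits the precision.

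From these values 64 control probe sets were left out. Platform annotation gave 1 symbol to 34945 of the 45037 others, several to 932 and none to 9160. limma 3.58.1 in R 4.3.3 (lmFit, eBayes, 3.26 prior degrees of freedom) compared 2 vorinostat with 2 DMSO arrays, two-sided, with Benjamini-Hochberg adjustment over all probe sets, no filter and no further scaling. The code was tested on simulated data. A group is described by counts and its median, beside all genes.

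The members and lists were chosen with earlier results of these data known. The text names, per complex, up to 6 rises and 6 falls, all assembly factors, tissue isoforms and core subunits, and up to 4 genes per other list. Further called subunits beyond these, Ndufb4, Cox7c and Cox5b, and the markers were named after their values were seen. A gene's probe set is the one with the highest mean, and the background limit was chosen with the data seen. Alternatives left out each array, used the replicate number as a block, an intensity trend, reference-gene scaling, median centring, a filter on low values, means of probe sets, plain probe sets, and, added after seeing the data, members not near background only. Same-numbered arrays did not deviate together (correlation -0.06).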

Additional observations from a re-analysis of the deposited data

Results flagged for a closer look

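Probe sets that the annotation gives to several genes stayed out of the member counts, although for 10 of them at least 1 symbol matched the choice of members. Of these 10, 5 lay higher with vorinostat than in the DMSO arrays, past the limma threshold, with changes of 0.55, 0.67, 0.74, 0.52 and 0.38 on the log2 scale. Another fell, with a change of -0.28. No gene is named for them because each carries several symbols.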

How the results depend on the processing

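With 1 array left out, the members that rose numbered 26 to 29 and those that fell 4 in each case. The ranges for subunits that rose were 8 to 10 (complex I), 3 to 4 (complex III), 3 to 4 (complex IV) and 5 (complex V), and for those that fell 1 (complex I), 0 (complexes II and III) and 1 (complex V). Fewer arrays entered those comparisons. Reference-gene scaling, which adds the same amount to every change, gave 77 members that rose and 4 that fell, where 69.4% of all genes rose and 10.2% fell. By complex, 26 rose and 1 fell in I, 3 and 0 in II, 8 and 0 in III, 16 rose in IV, 15 rose and 1 fell in V, and 8 assembly factors rose. Under it the values of Ndufs7 (0.01), Ndufa5 (0.03), Ndufs3 (0.06), Sdhd (0.12), Uqcrb (0.04), Ndufaf5 (0.27), Ndufaf8 (0.15), Sdhb (0.37), Atp5a1 (0.41) and Ppargc1b (0.33) turned positive, as did those of Ndufs8 (0.13), Ndufaf1 (0.16) and Cox8b (0.33), which passed on neither scale, and of Cox7c (0.04). With plain probe sets only, 27 members rose, over fewer genes, and 1 member called in the full comparison changed sign. With an intensity trend 13 complex V subunits rose, and with means of probe sets 0 complex II subunits fell. The cause was not tested.

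The labels do not say whether arrays with the same number share a batch or day, and their deviations had a correlation of -0.06, so they were not treated as pairs. With the replicate number as a block, 47 of the 54 member calls were kept, 36 members rose and 11 fell, and 0 complex II subunits fell. Over all genes 3103 rose and 2892 fell. Counting only members not near background left 41 that rose and 13 that fell. With 2 arrays a group, the number of arrays limits the precision.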
